A study of Mus musculus with 16 samples.

Results

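The genes described here are the pore-forming alpha subunits of voltage-gated potassium (Kv) channels of the mouse. They were chosen by gene name, as the families Kcna, Kcnb, Kcnc, Kcnd, Kcnq and Kcnh. Of 39179 gene entries, 31 carried such a name and 29 were kept, because they held 10 or more counts in at least 4 of the 16 libraries. The 29 entries stand for 28 gene symbols, since Kcnb2 has 2 overlapping entries whose counts are uncertain for that reason. Of the 2 entries not kept, Kcna7 reached 10 counts in 1 library and Kcna10 in 0. Of the 29, 13 overlap another annotated gene, 7 of them on the same strand, so their counts may be shared. All 29 kept entries were also among the 18074 genes tested.

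RNA came from neurons isolated from the cortex and the hippocampus of adult mice of the strain B6.129S6.SvEvTac, which the labels call TERT-AD without spelling the term out. Tamoxifen-treated animals form 1 group and vehicle-treated control animals the other in each region, and the study compared neurons with Tert, the catalytic subunit of telomerase, switched on in the animal with control neurons. Nothing used here gives the alleles of either group, what drives the switch, an age beyond adult, the dose of tamoxifen, the time after it or how the neurons were obtained. The 16 libraries fall into 4 groups of 4, and neighbouring libraries were so similar that they were added, which leaves 2 samples per group, called A (libraries 1 and 2) and B (libraries 3 and 4).

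Kv channels open when a neuron depolarises and let potassium leave the cell, which ends the action potential and sets how fast the cell can fire again. An alpha subunit forms the pore as a tetramer with the same or closely related subunits, and each family opens and closes at its own speed and voltage. In forebrain neurons, Kv1 channels sit on axons, Kv2 channels in clusters on the cell body, Kv3 channels in fast-firing cells, Kv4 channels on dendrites, and Kv7 channels carry the slow M-current that damps repeated firing. The Kcnh genes encode the EAG, ERG and ELK channels, which also act near the resting potential.

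For Kcnh7 and Kcnh5, Kcnh genes called lower in hippocampus, and Kcnh8, which was not called and had a positive fold change, the sequence just before the transcription start is shown. In each, the 250 bases upstream of the RefSeq start (GRCm38.p6) are printed 5′ to 3′ on the gene's strand, and capitals mark matches to the GC box (GGGCGG, searched on both strands). Kcnh7, the ERG gene with the largest regional difference, lies on the minus strand with its window at chr2:63184288-63184537. Kcnh5, the EAG gene that was lower in hippocampus, lies on the minus strand with its window at chr12:75177333-75177582. Kcnh8, an ELK gene of low counts, lies on the plus strand with its window at chr17:52602459-52602708.
Kcnh7: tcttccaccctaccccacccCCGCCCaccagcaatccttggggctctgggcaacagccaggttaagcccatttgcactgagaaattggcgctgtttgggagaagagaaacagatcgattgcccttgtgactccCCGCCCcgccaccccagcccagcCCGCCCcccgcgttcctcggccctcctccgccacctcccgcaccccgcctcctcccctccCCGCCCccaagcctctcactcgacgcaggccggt
Kcnh5: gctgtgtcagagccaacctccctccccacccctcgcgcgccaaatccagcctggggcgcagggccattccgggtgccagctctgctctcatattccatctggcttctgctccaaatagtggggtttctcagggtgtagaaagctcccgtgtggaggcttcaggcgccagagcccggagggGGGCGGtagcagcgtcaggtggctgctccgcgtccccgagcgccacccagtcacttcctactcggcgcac
Kcnh8: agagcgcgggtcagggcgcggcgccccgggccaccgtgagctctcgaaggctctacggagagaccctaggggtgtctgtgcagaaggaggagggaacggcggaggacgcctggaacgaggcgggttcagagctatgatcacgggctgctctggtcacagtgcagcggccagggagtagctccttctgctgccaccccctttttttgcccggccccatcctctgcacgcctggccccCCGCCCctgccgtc

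The set of RefSeq promoters used here held entries for 18 of the 28 symbols, 22 entries in all. Each spans 250 bases before to 50 after a start, and only the 250 bases before it were searched and counted. A GC box was found in 13 of these 22 (59.1%), against 32.7% of the 32851 promoters in the table. The TATA box (TATAAA, both strands) matched 0 of 22, against 12.4% of all. An E-box (CANNTG) matched 13 of 22 (59.1%), against 66.2% of all. The median number of CG dinucleotides was 15 in the entries for Kv genes and 6 over all promoters. Several entries of 1 gene overlap, so they are not independent. Some starts lie far from the gene start used for the counts, by 162637 bases for Kcna5 and 22013 for Kcnh2.

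Levels are given in CPM, counts per 1000000 counts of the library size, here the sum of counts in genes multiplied by edgeR's TMM factors. Where a pair of values is given for a group, sample A comes first and sample B follows. To compare genes, CPM was divided by exon length (CPM per kb). On that scale Kcnh3, an ELK channel gene of the forebrain, was first of all Kv alpha genes in both regions, with a mean of 52.0 CPM per kb in cortex and 20.5 in hippocampus (4 samples each). The Kv3 gene Kcnc4, which gives a rapidly inactivating current, stood at 14.8 and 9.67. Kcnh2, an ERG channel gene, stood at rank 12 in cortex at 4.08 and at rank 5 in hippocampus at 5.50. In other families, Kcna2 led the Kcna genes at 7.68 and 4.74, and Kcnd2, which gives the dendritic A-type current, led the Kcnd genes at 4.38 and 4.23. At the low end were Kcnh8 (0.0287 and 0.0676) and both Kcnb2 entries.

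**Figure D1:**
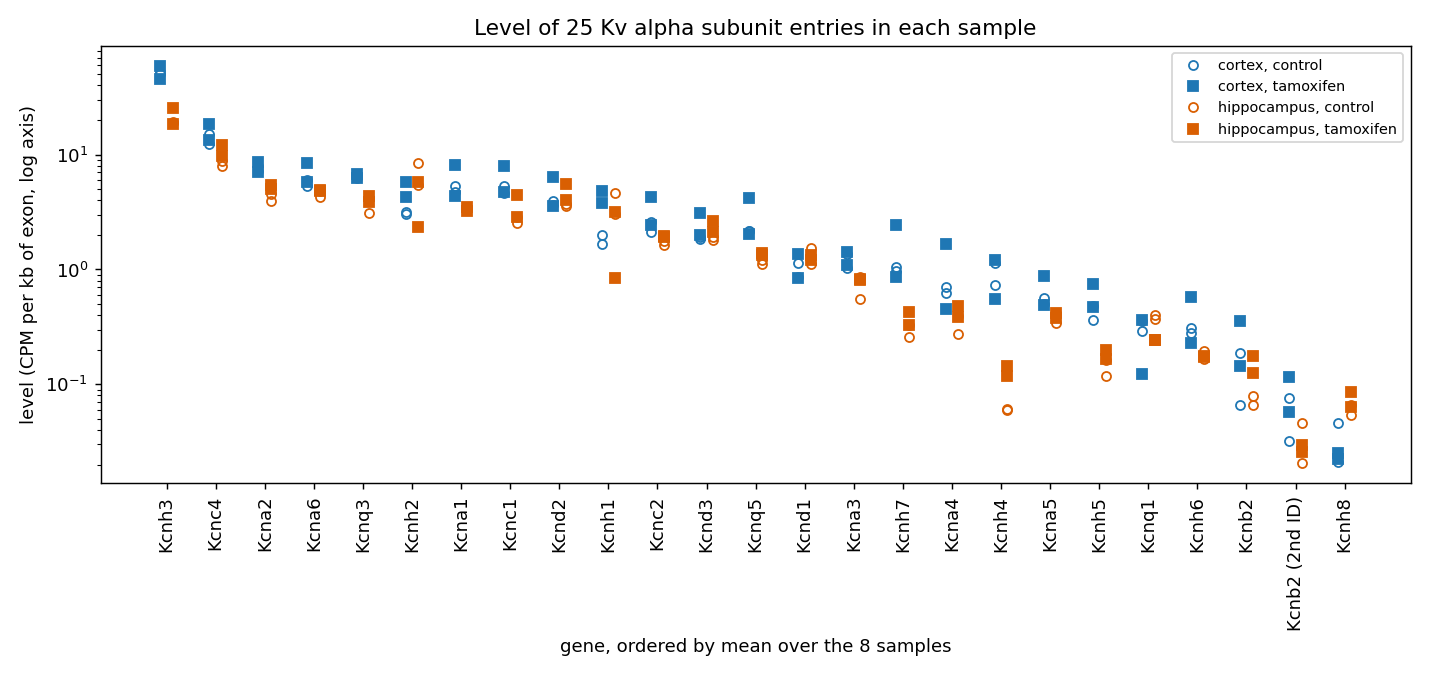
Level of 25 of the 29 Kv alpha subunit entries in CPM per kb of exon (log axis) in each of the 8 samples; open circles are controls, filled squares tamoxifen, blue cortex and orange hippocampus. Kcnh3 stands apart at the top in both regions, and the blue points of Kcnh4 lie well above the orange ones.

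Each sample's make-up was read from the share each channel class took of the summed CPM per kb of the 29 entries, a ratio that no scaling between samples can alter. The ELK class (Kcnh3, Kcnh4, Kcnh8) took 29.9 to 34.1% in the 4 cortical samples and 19.7 to 23.0% in the 4 hippocampal samples, with no overlap. Nearly all of it was Kcnh3, which alone took 29.2 to 33.4% in cortex and 19.5 to 22.8% in hippocampus. The A-type class (6 genes, among them Kcna4, Kcnc4 and the Kcnd genes) took 22.5 to 27.7% in hippocampus against 17.4 to 20.7% in cortex, and Kv7 took 19.7 to 21.5% against 16.9 to 18.6%, again with no overlap. The regions overlapped for the Kv1 and Kv3 delayed rectifiers and for EAG and ERG. In the hippocampal samples the EAG share ran from 0.938 to 5.0% and the ERG share from 2.66 to 9.33%. These shares add to a fixed whole, so a fall in one class raises the others.

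**Figure D2:**
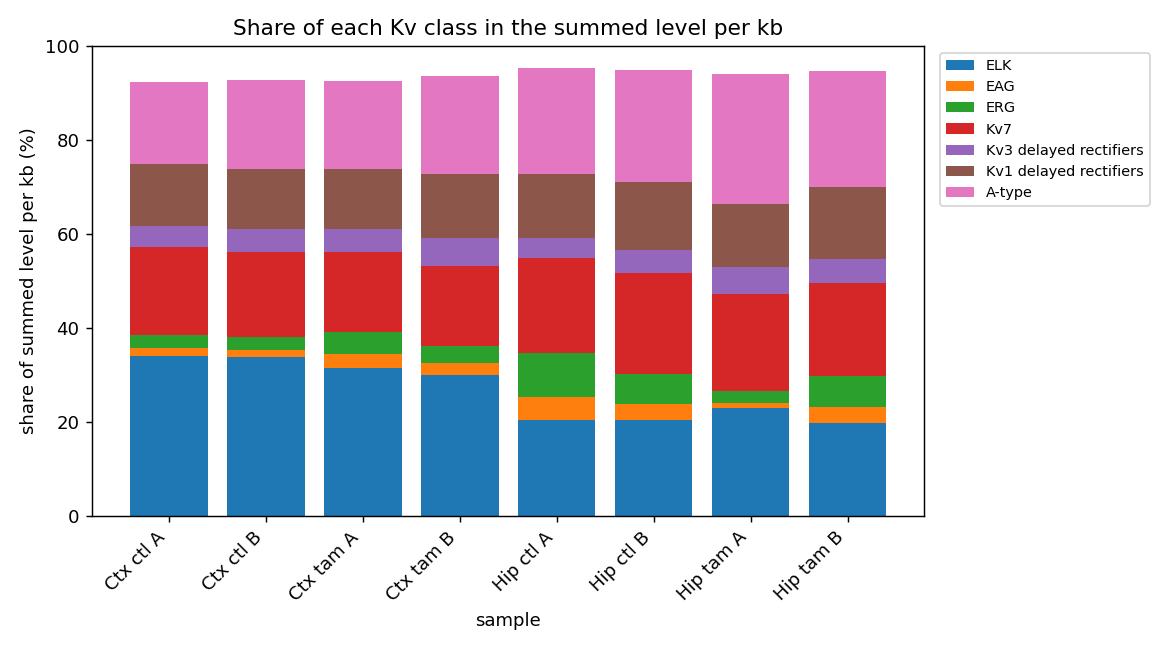
Share of 7 Kv classes in the summed CPM per kb (percent, stacked bars from 0, the rest up to 100 not drawn) in each of the 8 samples. The ELK bar is shorter in the 4 hippocampal samples (19.7 to 23.0%) than in the 4 cortical samples (29.9 to 34.1%).

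Before the comparisons, some facts of the whole series bear on these genes. Samples held 83527470 to 108293362 counts in genes, of which 20.4 to 31.5% were mitochondrial, and the TMM factors ran from 0.826 to 1.14. Cortical tamoxifen sample B stood apart, with a summed level of 10 oligodendrocyte markers of 21325 CPM against 61839 to 81856 in the other cortical samples, and a summed level of 10 pan-neuronal markers of 4854 against 3048 to 3626. Most of the first sum was Mbp (14441 CPM in sample B) and Mobp (5274). Mag, Mog, Cldn11 and Opalin in sample B lay within the range of the other cortical samples, as did the pan-neuronal Map2, Nefl and Nefm. The remaining oligodendrocyte markers were lowest in sample B among cortical samples, and the remaining pan-neuronal markers highest. Hippocampal tamoxifen sample A also stood apart, with 44.4 CPM summed over 9 choroid plexus markers against 7725 to 15525 in the other hippocampal samples. Both are tamoxifen samples. The samples are labelled as neurons, yet in all 8 the summed levels of 11 astrocyte markers (7616 to 11196 CPM) and 10 microglial markers (891 to 2366 CPM) were well above 0. In such bulk RNA, fewer cells of a type and less RNA per cell cannot be told apart. The targeted gene Tert stood at 0.546 and 1.32 CPM in the cortical controls, 1.26 and 2.05 in the cortical tamoxifen samples, 1.29 and 3.59 in the hippocampal controls and 0.931 and 2.04 in the hippocampal tamoxifen samples, which overlap in both regions.

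Hippocampal samples were compared with cortical ones over both treatments, 4 against 4. In edgeR's quasi-likelihood test, with p-values adjusted by Benjamini-Hochberg over all genes and a threshold of 0.05, 13 of the 29 Kv entries (44.8%) were lower in hippocampus and 0 higher. Over all genes tested, 18.4% were called and 9.94% were called lower. At an unadjusted p under 0.05 there were 20 Kv entries, against 35.1% of all genes. The median log2 fold change of the Kv entries was -0.71, against 0.00 for all genes, and 25 of 29 were negative. Counted without a test, 17 entries were lower in every hippocampal sample than in any cortical sample (15.2% of all genes) and 1, Kcnh8, was higher (11.8% of all genes). Neuronal markers moved with this difference: 6 of 10 pan-neuronal markers were called lower in hippocampus, with a median log2 fold change of -0.90, as were 5 of 9 excitatory and 9 of 11 inhibitory markers. The summed pan-neuronal level was 3048 to 4854 CPM in the cortical samples and 2117 to 2613 in the hippocampal ones. Called higher were 6 of 11 astrocyte, 8 of 10 microglial and 6 of 8 oligodendrocyte precursor markers. Their part in the Kv difference was not tested.

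**Figure D3:**
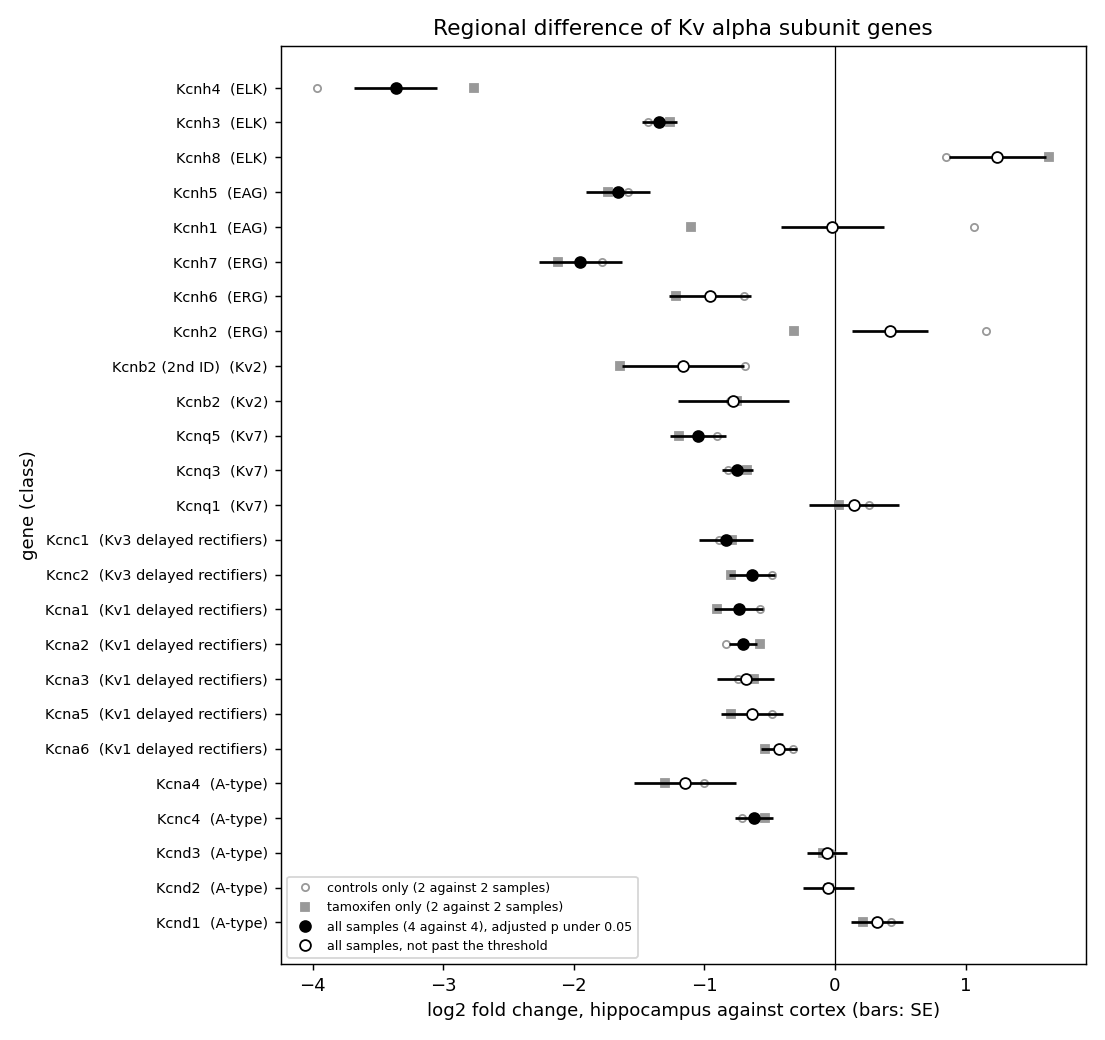
Log2 fold change of 25 Kv entries, hippocampus against cortex, by class; black points with SE bars are all 4 against 4 samples, filled where the adjusted p was under 0.05, and grey points are the controls or the tamoxifen samples alone. The filled points all lie left of 0, with Kcnh4 farthest at -3.36, while Kcnh8, Kcnh2, Kcnd1 and Kcnq1 lie to the right.

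The ELK genes held both ends of the range. Kcnh4 (ENSMUSG00000035355, chr11:100740376-100759942 in mm10) stood at 4.51 and 2.90 CPM in the cortical controls, 2.19 and 4.78 in the cortical tamoxifen samples, 0.234 and 0.239 in the hippocampal controls and 0.564 and 0.461 in the hippocampal tamoxifen samples. Every hippocampal sample lay below every cortical one. Its hippocampal libraries held only 11 to 39 counts each. Kcnh4 fell by 3.36 on the log2 scale (SE 0.32, edgeR adjusted p 0.00355), which is 10.3-fold lower in hippocampus. Kcnh3 (ENSMUSG00000037579, chr15:99224976-99242817) stood at 180 and 188 CPM in the cortical controls, 163 and 212 in the cortical tamoxifen samples, 68.9 and 67.7 in the hippocampal controls and 90.4 and 65.9 in the hippocampal tamoxifen samples. The regions did not overlap, and Kcnh3 was 2.54-fold lower in hippocampus, with a log2 fold change of -1.34 (SE 0.14) and an edgeR adjusted p of 0.00414. Kcnh8 (ENSMUSG00000035580), at 0.0949 and 0.211 CPM in the cortical controls, 0.101 and 0.114 in the cortical tamoxifen samples, 0.301 and 0.247 in the hippocampal controls and 0.393 and 0.287 in the hippocampal tamoxifen samples, lay higher in every hippocampal sample. Its 16 libraries held 0 to 24 counts each, and its log2 fold change of 1.24 (SE 0.37) did not pass (edgeR adjusted p 0.0576). Of the libraries with 10 or more counts of Kcnh8, 7 were hippocampal and 1 cortical, so the count filter kept it mainly through the region where it was higher, and its values are a description.

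Levels of Kcnh4 were set beside markers of the striatum, which borders the cortex and whose neurons express the receptors Adora2a and Drd2. Adora2a stood at 20.1 and 13.5 CPM in the cortical controls, 8.0 and 26.6 in the cortical tamoxifen samples, 2.66 and 2.90 in the hippocampal controls and 3.13 and 3.13 in the hippocampal tamoxifen samples, and ordered the 8 samples as Kcnh4 did, though its hippocampal tamoxifen samples were nearly equal. Drd2 stood at 10.3 and 7.82 CPM in the cortical controls, 4.10 and 12.9 in the cortical tamoxifen samples, 0.335 and 0.358 in the hippocampal controls and 0.444 and 0.557 in the hippocampal tamoxifen samples, with the order of Kcnh4 in the 4 cortical samples but not in the hippocampal ones. Of 8 striatal markers tested, 7 were called lower in hippocampus, with a median log2 fold change of -2.72. The other, Ppp1r1b, was not called (log2 fold change -0.56, edgeR adjusted p 0.196). It stood at 132 and 85.0 CPM in the hippocampal controls and 44.1 and 88.5 in the hippocampal tamoxifen samples. Summed, the 8 markers ran from 206 to 463 CPM in cortex and from 73.1 to 154 in hippocampus. In hippocampus, this sum and Ppp1r1b were lowest in tamoxifen sample A, where Kcnh4 was highest. What part such cells have in the level of Kcnh4 was not tested.

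Of the EAG genes, Kcnh5 passed the threshold and Kcnh1 did not. Kcnh5 (ENSMUSG00000034402, chr12:74897217-75177332) stood at 1.48 and 1.94 CPM in the cortical controls, 1.90 and 3.00 in the cortical tamoxifen samples, 0.661 and 0.477 in the hippocampal controls and 0.803 and 0.670 in the hippocampal tamoxifen samples. It was lower in every hippocampal sample, by 3.16-fold (log2 fold change -1.66, SE 0.24, edgeR adjusted p 0.00847). Kcnh1 overlapped between regions, with a log2 fold change of -0.02 (SE 0.39) and an edgeR adjusted p of 0.979. That value averages opposite ones, 1.06 in the controls only and -1.10 in the tamoxifen samples only. Each was without overlap, and neither passed (edgeR adjusted p 0.273 and 0.319). Of the 18074 genes tested, 6247 were higher without overlap in the controls only and 4356 lower in the tamoxifen samples only. Scaled to the plain sum of counts in genes, Kcnh1 overlapped in the tamoxifen samples. The difference between these 2 genes was not itself tested.

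Among ERG genes, Kcnh7 (ENSMUSG00000059742, chr2:62693414-63184287) stood at 14.9 and 16 CPM in the cortical controls, 13.1 and 37.0 in the cortical tamoxifen samples, 3.94 and 5.04 in the hippocampal controls and 6.54 and 4.99 in the hippocampal tamoxifen samples. All hippocampal samples were below all cortical ones, and cortical tamoxifen sample B was higher than any other sample. The gene was 3.86-fold lower in hippocampus (log2 fold change -1.95, SE 0.32, edgeR adjusted p 0.0108). Gca on the opposite strand overlaps its span, and nothing used here says whether counting used strand. Kcnh6 stood at 0.985 and 1.10 CPM in the cortical controls and 0.812 and 2.05 in the cortical tamoxifen samples. In hippocampus it stood at 0.694 and 0.588 in the controls and 0.606 and 0.626 in the tamoxifen samples. It did not overlap between regions but missed the threshold (log2 fold change -0.96, SE 0.31, edgeR adjusted p 0.0759). Kcnh2 did not pass either (log2 fold change 0.42, SE 0.29, edgeR adjusted p 0.338). Its value was 1.16 in the controls only and -0.32 in the tamoxifen samples only, and neither passed (edgeR adjusted p 0.130 and 0.715).

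The Kv2 entries of Kcnb2 had log2 fold changes of -0.78 and -1.16 that did not pass (edgeR adjusted p 0.235 and 0.127).

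In the Kv7 family 3 of 5 genes were lower in hippocampus. Kcnq5 (ENSMUSG00000028033, chr1:21398403-21961942) stood at 16.7 and 16.6 CPM in the cortical controls, 15.6 and 32.4 in the cortical tamoxifen samples, 9.27 and 8.57 in the hippocampal controls and 10.3 and 10.7 in the hippocampal tamoxifen samples, with a log2 fold change of -1.05 (SE 0.21) and an edgeR adjusted p of 0.0200. The regions did not overlap. Kcnq5 was called in 10 of 17 alternatives (other scalings, filters and tools, or samples left out) and in 2 of the 8 that left out 1 sample. Kcnq3, a subunit of the M-current, stood at 88.8 and 94.6 CPM in the cortical controls, 90.1 and 97.3 in the cortical tamoxifen samples, 44.1 and 59.7 in the hippocampal controls and 62.2 and 55.1 in the hippocampal tamoxifen samples, and fell by 0.75 (SE 0.12, edgeR adjusted p 0.00968). It was called in 14 of the 17. Scaled to the plain sum of counts in genes, neither passed (edgeR adjusted p 0.0756 for Kcnq5 and 0.0718 for Kcnq3). The heart and epithelial gene Kcnq1 ran from 0.370 to 1.21 CPM over the 8 samples and did not pass (log2 fold change 0.15, SE 0.34, edgeR adjusted p 0.797). Entries named for its antisense transcript overlap it, on the same strand in the annotation used, so its counts may be shared.

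The Kv3 delayed rectifiers Kcnc1 and Kcnc2 were lower in hippocampus, in calls that many alternatives ended. Kcnc1 (ENSMUSG00000058975, chr7:46396497-46438375), the channel of fast-firing interneurons, stood at 42.6 and 48.9 CPM in the cortical controls, 43.0 and 72.8 in the cortical tamoxifen samples, 23.3 and 26.1 in the hippocampal controls and 40.9 and 26.3 in the hippocampal tamoxifen samples, with a log2 fold change of -0.84 (SE 0.21) and an edgeR adjusted p of 0.0341. The highest hippocampal sample, tamoxifen A, lay just under the lowest cortical one. Kcnc2 stood at 13.3 and 16.1 CPM in the cortical controls, 15.1 and 26.3 in the cortical tamoxifen samples, 10.1 and 10.9 in the hippocampal controls and 12.1 and 11.8 in the hippocampal tamoxifen samples, without overlap, and fell by 0.64 (SE 0.18, edgeR adjusted p 0.0482). Kcnc1 was called in 9 of 17 alternatives and Kcnc2 in 8, which include 3 and 2 of the 8 that left out 1 sample. With the plain sum their edgeR adjusted p was 0.146 and 0.281. Of the 5 Kv1 delayed rectifiers, the axonal channels Kcna1 and Kcna2 passed. Kcna2 (ENSMUSG00000040724, chr3:107101567-107106879) stood at 24.6 and 27.5 CPM in the cortical controls, 24.2 and 29.8 in the cortical tamoxifen samples, 13.6 and 15.6 in the hippocampal controls and 18.9 and 17.3 in the hippocampal tamoxifen samples, and fell by 0.71 (SE 0.11, edgeR adjusted p 0.00879). Kcna1 fell by 0.74 (SE 0.19, edgeR adjusted p 0.0363) from levels of 47.8 and 42.8 CPM in the cortical controls, 39.5 and 73.1 in the cortical tamoxifen samples, 30.1 and 30.7 in the hippocampal controls and 28.9 and 31.3 in the hippocampal tamoxifen samples. Its entry overlaps that of Kcna5 on the same strand, so the counts of both are uncertain. Kcna2 was called in 15 of 17 alternatives and Kcna1 in 8, which include 7 and 2 of the 8 that left out 1 sample. With the plain sum neither passed (edgeR adjusted p 0.114 for Kcna2 and 0.192 for Kcna1). Kcna3, Kcna5 and Kcna6, with log2 fold changes of -0.68, -0.64 and -0.43, were lower without overlap but did not pass (edgeR adjusted p 0.0693, 0.103 and 0.0725).

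Of the 8 classes, A-type genes had the median log2 fold change closest to 0, -0.16 over 6 genes. Kcnc4 (ENSMUSG00000027895, chr3:107438303-107458898) was the 1 of 6 that passed. It stood at 36.9 and 45.6 CPM in the cortical controls, 39.9 and 55.3 in the cortical tamoxifen samples, 26.5 and 23.9 in the hippocampal controls and 36.8 and 29.1 in the hippocampal tamoxifen samples, and fell by 0.62 (SE 0.15, edgeR adjusted p 0.0294). The call held in 9 of 17 alternatives and in 3 of the 8 that left out 1 sample, and was lost with the plain sum (edgeR adjusted p 0.252). Kcnd2 (ENSMUSG00000060882, chr6:21215503-21729805) stood at 20.5 and 18.6 CPM in the cortical controls, 18.3 and 32.9 in the cortical tamoxifen samples, 18.5 and 19.1 in the hippocampal controls and 28.6 and 20.8 in the hippocampal tamoxifen samples, so the regions overlapped. Its log2 fold change of -0.05 (SE 0.20) and that of Kcnd3, -0.06 (SE 0.15), were near 0 (edgeR adjusted p 0.877 and 0.808). The cortical samples of Kcna4 ran from 2.19 to 8.08 CPM and the hippocampal ones from 1.31 to 2.32. In log2 fold changes, Kcnd1 was at 0.32 and Kcna4 at -1.15, neither of which passed (edgeR adjusted p 0.286 and 0.0840).

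Within the controls alone, 2 against 2, edgeR called 7 Kv entries lower, among them Kcnh4, Kcnh3, Kcna2, Kcnq3 and Kcnh5, against 6.19% of all genes called in either direction. Within the tamoxifen samples it called 3, among them Kcnh3 and Kcnh4, against 1.12%. Kcnh3 and Kcnh4 were called in all 17 alternatives tried over both treatments, 8 of which left out 1 sample each, and all 13 called genes kept a negative sign in each. Which other genes passed depended on single samples. Without cortical control B, 3 Kv entries were called, against 1.95% of all genes in the same fit. Without cortical control A 7 were called (3.37% of all genes), as without hippocampal control A (7.12%). Leaving out hippocampal control B or hippocampal tamoxifen B left 8 (5.09% and 5.54% of all genes). Scaled to the sum of counts in genes without TMM, the median of all genes shifted to 0.27 and 85.1% of all calls were higher in hippocampus, against 45.8% with TMM. Scaled to that sum without mitochondrial genes, these were 0.21 and 79.9%, with 10 Kv entries called, against 21.6% of all genes. With the plain sum 7 Kv entries were called, against 20.2% of all genes. In each, 1 of those called was Kcnh8, higher in hippocampus, and the others were among the 13. The count filter kept Kcnh8 mainly through the hippocampus, so its calls are not read as a result. With the plain sum 8 of the 17 non-overlapping entries (among them Kcnh3, Kcnh4, Kcnh5, Kcnh7, Kcnq3 and Kcnq5) still did not overlap.

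Genes that work with the alpha subunits were read from lists of the pathway. Of all genes tested, 9.94% were called lower in hippocampus and 8.42% higher. Of 13 auxiliary genes tested, 6 were lower in hippocampus and 0 higher: the beta subunits Kcnab3 (-1.66) and Kcnab1 (-0.70), the Kv4-binding proteins Kcnip4 (-1.12), Kcnip2 (-0.70) and Kcnip1 (-0.63), and the Kv4 partner Dpp10 (-1.66), all as log2 fold changes. Dpp6 (-0.06) and Kcnip3 (-0.06), also Kv4 partners, did not pass. Among 9 silent alpha subunits, which form no channel alone and modify Kv2, 4 were lower (Kcnv1 -2.62, Kcns1 -1.55, Kcnf1 -1.41 and Kcng3 -1.23) and 1 was higher, Kcng2 at 1.70 (edgeR adjusted p 0.00295). Of 12 genes that cluster or anchor Kv1 channels on axons, 6 were lower and 0 higher, with Dlg1 (-0.88) and Dlg2 (-0.87) the most. The medians were -0.09, -0.71 and -0.55 for these lists, against 0.00 for all genes. As 0 of the 18074 genes passed in a tamoxifen comparison with edgeR, none of these did.

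Tamoxifen was then compared with control in the cortex, 2 samples against 2. No Kv entry passed (0 of 29, edgeR adjusted p), as was the case for 0% of all genes, and 0 reached an unadjusted p under 0.05, against 4.97% of all genes. DESeq2 and limma voom also called 0. The signs leaned upward: 26 of 29 entries were positive, with a median log2 fold change of 0.34 against 0.04 for all genes. The 3 entries without overlap, all higher with tamoxifen, were Kcnh1, Kcnd3 and Kcnh2 (16.2% of all genes were higher without overlap and 15% lower, with 0 Kv entries lower). Cortical tamoxifen sample B was the highest cortical sample for 26 of the 29 entries, against 38.7% of all genes tested. Without it the median of the Kv entries was -0.0933, and without sample A of the same group 8 entries were called (Kcnq5, Kcnc2, Kcna6, Kcnd3, Kcna4, Kcna1, Kcnh7 and Kcnd2), against 10.7% of all genes in that fit, so that the sign rests on sample B. It is the sample with the low oligodendrocyte and high pan-neuronal marker sums given above, which not every marker of those lists followed. The part of these sums in the Kv levels was not tested.

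The smallest p in cortex belonged to Kcnh1 (ENSMUSG00000058248, chr1:192190784-192510159), an EAG channel gene. Its levels were 14.5 and 12.2 CPM in the controls and 27.5 and 35.2 in the tamoxifen samples, with a log2 fold change of 1.23 (SE 0.57) and an edgeR adjusted p of 0.830. Kcnh2 (ENSMUSG00000038319, chr5:24319589-24351604) stood at 15.4 and 14.8 against 27.8 and 20.9, a log2 fold change of 0.69 (SE 0.41). In both genes the tamoxifen samples exceeded the controls. Kcnd3, a gene of the A-type current, was at 17.8 and 18.5 against 19.0 and 29.6 (log2 fold change 0.43, SE 0.22). For Kcnc2, a Kv3 gene, the values of 13.3 and 16.1 against 15.1 and 26.3 overlapped (log2 fold change 0.50, SE 0.25), as did those of Kcnq5, 16.7 and 16.6 against 15.6 and 32.4 (log2 fold change 0.53, SE 0.30). Each of these had an edgeR adjusted p of 0.830. Kcnq5 turned to -0.0933 without sample B of the tamoxifen group.

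In the hippocampus 0 of 29 entries passed with edgeR, as did 0% of all genes, and 1 (Kcnh4) reached an unadjusted p under 0.05 against 3.61% of all genes. DESeq2 and limma voom called 0 Kv entries. Positive values numbered 22 of 29, with a median of 0.19 against -0.01 for all genes. The tamoxifen samples lay above the controls without overlap for 12 entries (21% of all genes). Among these were Kcnh4, Kcna2, Kcnc4, Kcnb2, Kcnd3, Kcnc1, Kcnd2, Kcnh5, Kcnq5, Kcnc2 and Kcna6. They lay below for 1, Kcnq1 (18.9% of all genes). Scaled to the plain sum of counts in genes, Kcnc1, Kcnh5 and Kcna6 overlapped. Kcnh4 was at 0.234 and 0.239 CPM in the controls and 0.564 and 0.461 in the tamoxifen samples (log2 fold change 1.11, SE 0.44, unadjusted p 0.0375, edgeR adjusted p 1). The Kcnh4 levels rest on 11 to 17 counts per control library and 19 to 39 per tamoxifen library. Kcna2 stood at 13.6 and 15.6 against 18.9 and 17.3, and Kcnc4 at 26.5 and 23.9 against 36.8 and 29.1. On the log2 scale Kcna2 differed by 0.31 (SE 0.15) and Kcnc4 by 0.38 (SE 0.21), each with an edgeR adjusted p of 1. Sample A of the tamoxifen group was the highest hippocampal sample for 19 of the 29 entries, against 30.7% of all genes, and it is the sample low in choroid plexus markers. Its neuronal marker sums were the highest of the 4 hippocampal samples, at 2613 CPM against 2117 to 2241 for pan-neuronal, 6792 against 5000 to 5691 for excitatory and 486 against 334 to 386 for inhibitory markers. The part of these in the Kv levels was not tested. Leaving it and cortical tamoxifen B out, 0 Kv entries passed and the median was 0.0942.

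**Figure D4:**
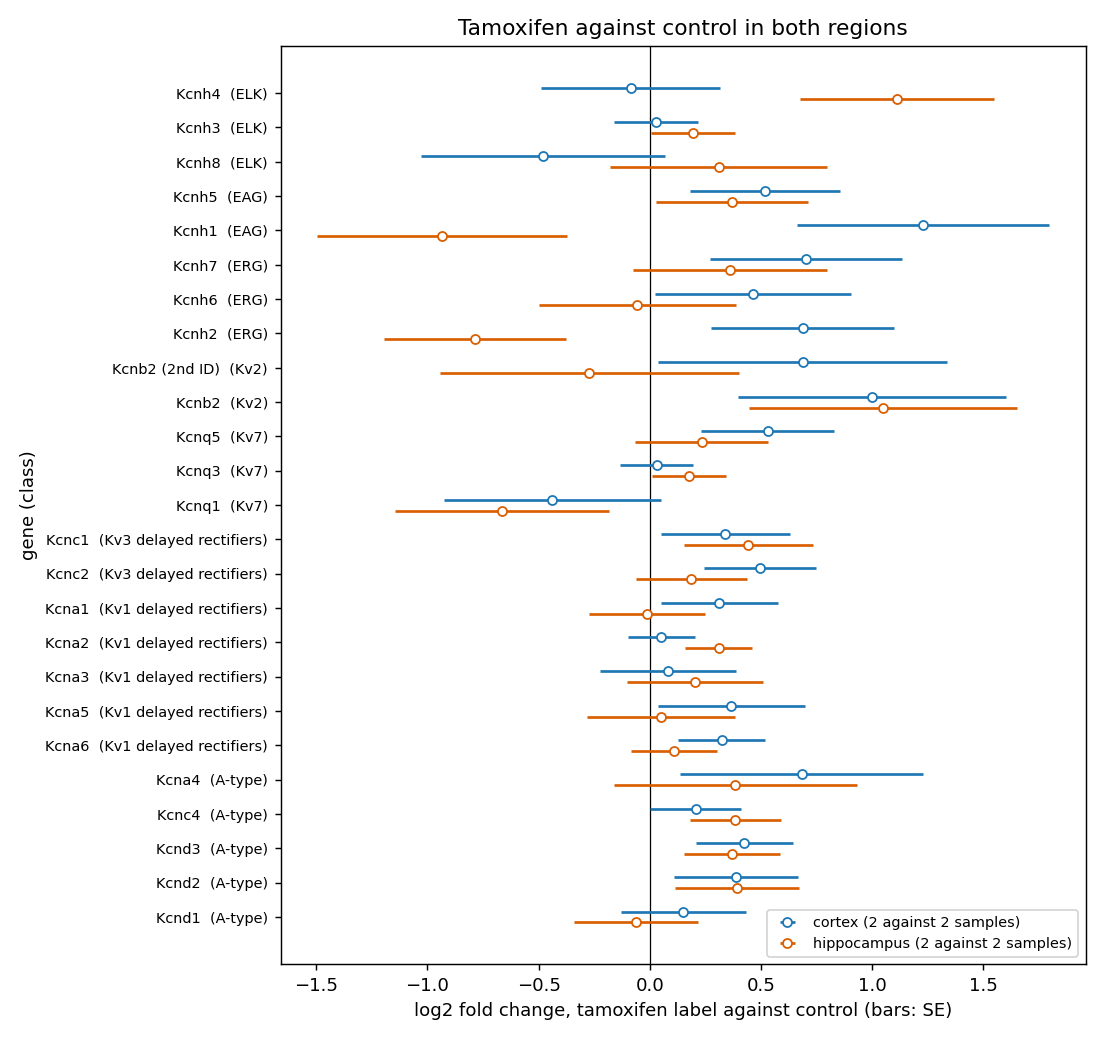
Log2 fold change of 25 Kv entries, tamoxifen against control, in cortex (blue) and hippocampus (orange), with SE bars (2 samples against 2 in each). Open points mark that no entry passed the threshold; Kcnh1 and Kcnh2 lie to the right of 0 in cortex and to the left in hippocampus.

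The difference of the 2 tamoxifen effects, hippocampus minus cortex, passed for 0 Kv entries and 0% of all genes in edgeR, and 2 entries, Kcnh1 and Kcnh2, reached an unadjusted p under 0.05 (5.43% of all genes). Kcnh1 had a difference of -2.16 on the log2 scale (SE 0.80, edgeR adjusted p 0.889) and Kcnh2 of -1.47 (SE 0.58, edgeR adjusted p 0.889). In Kcnh4 it was 1.20 (SE 0.59) and in Kcna2 0.26. DESeq2 and limma voom called 0 Kv entries for this difference.

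Across the hippocampal samples Kcnh1 and Kcnh2 had the same order. Kcnh1 stood at 33.8 and 22.0 CPM in the controls and 6.17 and 23.1 in the tamoxifen samples, and Kcnh2 at 41.0 and 26.2 against 11.4 and 27.6. For each, tamoxifen sample A was the lowest of all 8. Ttr, the defining transcript of the choroid plexus, stood at 1011 and 4.62 CPM in the cortical controls, 5690 and 2.79 in the cortical tamoxifen samples, 13970 and 6776 in the hippocampal controls and 33.9 and 7055 in the hippocampal tamoxifen samples. In the hippocampus its order was that of Kcnh1 and Kcnh2. In the cortex the orders differed, and Kcnh1 was highest at 35.2 CPM in tamoxifen sample B, where Ttr was at 2.79. Kcnh2 was highest of the cortical samples at 27.8 CPM in tamoxifen sample A, where Ttr was also highest at 5690. Kcne2, an accessory subunit made in choroid plexus that pairs with Kcnh2 and Kcnq channels, stood at 4.69 and 0.0282 CPM in the cortical controls, 28.0 and 0.0176 in the cortical tamoxifen samples, 70.9 and 38.3 in the hippocampal controls and 0.102 and 37.6 in the hippocampal tamoxifen samples. Without hippocampal tamoxifen A the difference of effects was -1.50 for Kcnh1 and -0.97 for Kcnh2, and without hippocampal tamoxifen B it was -3.40 and -2.24. The part of choroid plexus RNA in these levels was not tested.

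**Figure D5:**
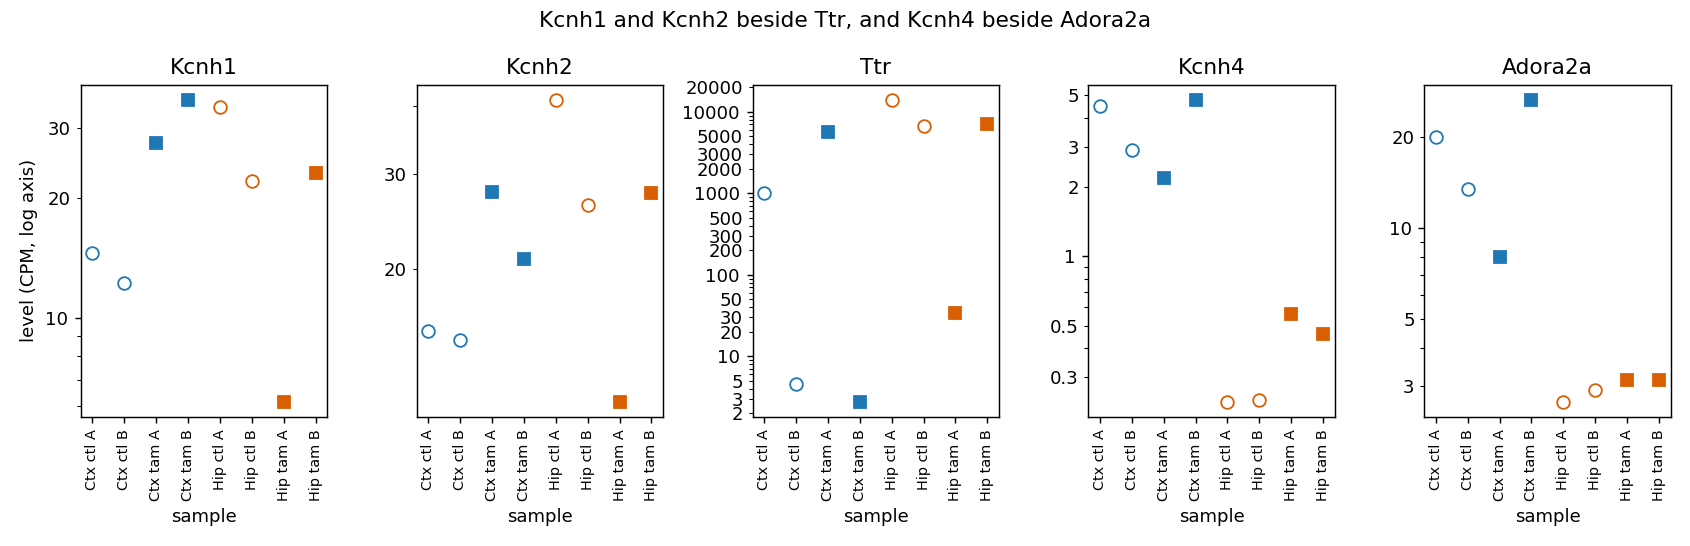
Levels in CPM (log axes that do not start at 0) of Kcnh1, Kcnh2, the choroid plexus marker Ttr, Kcnh4 and the striatal marker Adora2a in each of the 8 samples; open circles are controls and filled squares tamoxifen, blue cortex and orange hippocampus. In the hippocampus Kcnh1, Kcnh2 and Ttr are all lowest in tamoxifen sample A, and in all 8 samples Kcnh4 and Adora2a have the same order.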

How the data were processed

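Total RNA from 16 libraries was sequenced. The submitters' processing notes name STAR, HTSeq and the build mm10. Their versions, the annotation release and the strand setting were not given in the sources used here. Each deposited count is a whole number of reads per gene, and the deposited RPKM beside it, per the file headers, was used only to check the files. Entries that name no gene entered neither the library sizes nor the tests. Reads aligned to several places were 27.5 to 35.4% of all counts, reads outside genes 3.65 to 7.93% and ambiguous reads 1.38 to 1.86%. Libraries held 33236178 to 57195203 counts in genes.

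Neighbouring libraries of a group differed with an SD of log2 differences of 0.0999 to 0.132 over 8772 genes, other pairs of the same group by 0.235 to 0.620. They were added to 8 samples, since they may be repeats of 1 sample. No label ties libraries to animals, so the p-values cover the spread between these 8 samples, which may be technical.

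Counts were filtered with filterByExpr, scaled with TMM and fitted with 1 mean per group and the robust quasi-likelihood test of edgeR 4.0.16 (R 4.3.3), which was tested on simulated data. SEs were derived from the fold change and the F statistic. Genes given in full were, per comparison, up to 8 past the threshold with the largest change, or the 5 of smallest p where fewer than 5 passed, and the highest per kb in each family; further members were described by class. Alternatives used DESeq2 1.42.0, limma 3.58.1 (voom), other scalings, no filter, 16 libraries, and samples left out. The members and lists were chosen with earlier results of these data known. Promoters came from RefSeq (GRCm38.p6). Some members are not reported here, but they stay in all counts and medians.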

Additional observations from a re-analysis of the deposited data

How the results depend on the processing

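The counts of Kv entries past the threshold held within 1.5 times under RLE scaling, no filter, DESeq2 (17 in the regional comparison), limma voom (14), scaling without mitochondrial genes (10) and the leaving out of cortical tamoxifen B together with hippocampal tamoxifen A (14; added after the data were seen). In the regional comparison, which called 13, they moved to 7 when scaled to the sum of gene counts alone, 21 with 16 libraries, 7 with the controls only and 3 with the tamoxifen samples only. Leaving out 1 sample gave 3 to 19, and 0 to 8 in the cortical tamoxifen comparison, with the top of each range without cortical tamoxifen A. The difference of tamoxifen effects went from 0 to 2 with 16 libraries (Kcnh1 and Kcnh2, edgeR adjusted p 0.0338 and 0.0438), a fit whose p-values are too small where neighbouring libraries repeat 1 sample. Kcnq5 in cortex turned to -0.0914 without cortical tamoxifen B and hippocampal tamoxifen A, and ranged from -0.0933 to 0.96 over single samples left out. The cause was not tested.

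Over all genes, edgeR's calls in the tamoxifen comparisons of cortex, hippocampus and their difference were 0, 0 and 0, against 562, 318 and 867 with 16 libraries and 8, 9 and 9 with DESeq2. In cortex they were 1 without the filter, 3 without both samples, 2014 without cortical tamoxifen A and 1 without cortical tamoxifen B. The regional comparison, at 3318, gave 8481 with 16 libraries and 369 to 6144 with single samples left out. With the letter of the sample as a replicate block it gave 2109, and 9 Kv entries, without Kcna1, Kcnc1, Kcnc2 and Kcnc4. The letters did not pair the samples, since deviations of same-lettered samples correlated from -0.41 to 0.28. With 2 samples per group, 0 calls do not show that levels were equal. Kcnh8, Kcnb2 and Kcnh6 rest on few counts, as do the hippocampal levels of Kcnh4.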
